A study of Homo sapiens with 3 samples.

Results

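Variant histone genes encode histones most of which are also made outside S phase and which replace the replication-coupled histones at particular places in chromatin. The 8 genes described here were H2AZ1, H2AZ2, H3-3A, H3-3B, H2AX, H1-10, MACROH2A1 and MACROH2A2, out of 19866 annotated protein-coding genes. They were chosen by name, and ARID1B peaks were assigned to a gene when they lay inside it, within 1000 bp of either of its ends, or within 50 kb of its body. The genes were picked with the peaks at H2AZ1 and H2AZ2 known, so the presence of those peaks and their scores are given as a description, with no test. ARID1B is a subunit of BAF, the mammalian SWI/SNF chromatin remodeller, and was mapped by chromatin immunoprecipitation and sequencing (ChIP-seq) in HEK293FRT, a human cell line made from HEK293 embryonic kidney cells. The series had 2 ARID1B ChIP replicates and 1 input sample of this line, all labelled with no genotype and no treatment. Nothing states that the replicates were separate cultures, so a difference between them may be technical, and the input was not analysed here.

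H2A.Z, encoded by H2AZ1 and by its paralogue H2AZ2 as a nearly identical protein, is put into the nucleosomes that flank transcription starts by the SRCAP and p400 remodelling complexes. H3.3, encoded as the same protein by H3-3A and H3-3B, is deposited by the HIRA and DAXX-ATRX chaperones, and H2AX is phosphorylated around DNA breaks. MacroH2A carries a large globular domain and is abundant in silent chromatin, and H1-10 encodes a linker histone, which binds the DNA between nucleosomes. Most variant histone messages are polyadenylated, whereas the messages of replication-dependent histones end in a stem-loop that is cut with the help of the U7 small nuclear RNA; H2AX gives messages of both kinds.

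Peaks of both replicates were found at H2AZ1 and H2AZ2 and at none of the other 6 genes. At H2AZ2 the peaks lay just upstream of the transcription start, for the most part in the 344 bp between H2AZ2 and H2AZ2-DT, a non-coding RNA gene read in the opposite direction. At H2AZ1 they lay beyond the transcription end, in the 1469 bp between H2AZ1 and DNAJB14, which encodes a DnaJ-family co-chaperone and is read in the same direction, and they were nearer to the start of DNAJB14 than to H2AZ1. The sequences below are RefSeq sequences on GRCh38.p14, the assembly named hg38, and show the H2AZ2 interval that both replicates covered and the stretch upstream of DNAJB14. They are followed by the promoter stretches of H2AZ1 and H3-3B, which held no peak, for comparison. In the H2AZ2 interval (chr7:44848295-44848458, plus strand, 164 bases, reading toward H2AZ2-DT), capitals mark the CCAAT box, a promoter element bound by the factor NF-Y, on either strand. In the 250 bases upstream of DNAJB14 (chr4:99946619-99946868, minus strand), capitals mark the 23 bases that the peaks of both replicates covered. In the 250 bases upstream of H2AZ1 (chr4:99950276-99950525, minus strand) and of H3-3B (chr17:75779780-75780029, minus strand), capitals again mark the CCAAT box.
H2AZ2 interval under both peaks: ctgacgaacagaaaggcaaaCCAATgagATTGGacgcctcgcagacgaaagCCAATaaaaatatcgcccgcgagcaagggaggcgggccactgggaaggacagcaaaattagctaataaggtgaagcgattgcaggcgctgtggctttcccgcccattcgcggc
DNAJB14 upstream: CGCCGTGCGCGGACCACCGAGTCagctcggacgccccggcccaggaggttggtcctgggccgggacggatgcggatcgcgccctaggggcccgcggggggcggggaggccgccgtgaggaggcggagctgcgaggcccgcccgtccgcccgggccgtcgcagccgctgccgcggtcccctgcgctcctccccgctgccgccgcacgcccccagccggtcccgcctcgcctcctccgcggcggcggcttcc
H2AZ1 upstream: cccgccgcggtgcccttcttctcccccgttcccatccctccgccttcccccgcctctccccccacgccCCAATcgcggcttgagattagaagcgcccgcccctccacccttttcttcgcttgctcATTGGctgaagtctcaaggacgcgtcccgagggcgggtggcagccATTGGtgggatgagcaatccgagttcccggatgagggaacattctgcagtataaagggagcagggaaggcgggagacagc
H3-3B upstream: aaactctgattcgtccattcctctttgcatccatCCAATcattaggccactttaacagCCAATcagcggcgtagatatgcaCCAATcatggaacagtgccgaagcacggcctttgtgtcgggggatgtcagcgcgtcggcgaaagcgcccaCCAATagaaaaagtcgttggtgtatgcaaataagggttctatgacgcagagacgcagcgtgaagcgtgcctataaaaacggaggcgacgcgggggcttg

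Replicate 1 had 1792 peaks and replicate 2 had 1820, with median scores of 74 and 75. The score is the authors' own whole number per peak, on a scale that no source used here states, and is used only to rank peaks within a list and to describe overlapping peaks. A region was called shared when peaks of both lists overlapped by at least 1 bp, which gave 1313 regions. Of the peaks, 2 in each list lay within 50 kb of a variant histone gene. Sequencing depth is unknown, because the lists hold no read counts.

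H2AZ2 (gene identifier 94239, chr7:44826889-44848126, minus strand) had a replicate 1 peak at chr7:44848295-44848485 with a score of 30 and a replicate 2 peak at chr7:44848226-44848458 with a score of 91. Both lay outside the annotated gene body, with centres 264 and 216 bp upstream of its outermost start. The replicates differed in rank: in replicate 1, 1652 of 1792 peaks scored higher, which put the H2AZ2 peak at percentile 6.86 of its list, and in replicate 2, 685 of 1820 scored higher, which put it at percentile 61.9. The score of replicate 2 was 3.03 times that of replicate 1 (log2 ratio 1.60). Among 1305 regions formed by a single peak of each list the median log2 ratio was 0.03 with an SD of 0.74, and 96.5% of them had a smaller change in either direction. Shared regions at the ends of protein-coding genes scored higher in replicate 2 (median 103.5) than in replicate 1 (median 69). The H2AZ2 ratio was not set against those regions alone, so its rank among all regions may overstate how unusual it is. The replicates thus placed a peak at the same site but gave it uneven scores.

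The peaks at H2AZ2 had 164 bp in common, 85.9% of the replicate 1 peak and 70.4% of the replicate 2 peak. They lay closer to the start of H2AZ2-DT (chr7:44848471-44849565, plus strand), with centres 81 and 129 bp upstream of it, than to that of H2AZ2. The replicate 1 peak reached 15 bp into H2AZ2-DT, and the replicate 2 peak ended 13 bp before it. The promoter window of H2AZ2-DT, 250 bases before to 50 after the start, held both peaks whole, and that of H2AZ2 held 43 of 191 bp of the replicate 1 peak and 112 of 233 bp of the replicate 2 peak. The peaks thus lay mostly between both starts, and their assignment to H2AZ2 rather than to its partner rests on the choice of genes.

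H2AZ1 (gene identifier 3015, chr4:99948088-99950275, minus strand) had a replicate 1 peak at chr4:99946846-99947074 with a score of 43 and a replicate 2 peak at chr4:99946841-99947144 with a score of 53. Here the replicates were closer: 1424 of 1792 peaks of replicate 1 scored higher, which is percentile 19.2, and 1264 of 1820 peaks of replicate 2, which is percentile 30.1. The log2 ratio of replicate 2 to replicate 1 was 0.30, and 34.2% of the 1305 regions had a smaller change. The whole replicate 1 peak, 229 bp wide, lay inside the replicate 2 peak, of which it made up 75.3%.

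The H2AZ1 peaks stood 3315 and 3282 bp downstream of the transcription start of H2AZ1, measured at their centres, and 1128 and 1095 bp beyond its transcription end. The near edge of the replicate 2 peak was 944 bp from the end of H2AZ1 and that of the replicate 1 peak 1014 bp, so the gene came inside the window of 1000 bp through replicate 2 alone. No member lay just outside the limit of 50 kb, the next being H3-3B. The start of DNAJB14 (chr4:99896248-99946618, minus strand) was 228 bp from the replicate 1 peak and 223 bp from the replicate 2 peak, and both peaks lay upstream of it. The promoter window of DNAJB14 held 23 bp of the replicate 1 peak and 28 bp of the replicate 2 peak, and that of H2AZ1 held 0 bp of either. H2AZ1 also has a divergent non-coding partner, H2AZ1-DT, with 218 bp between the genes, but this interval held no peak in either list.

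**Figure D1:**
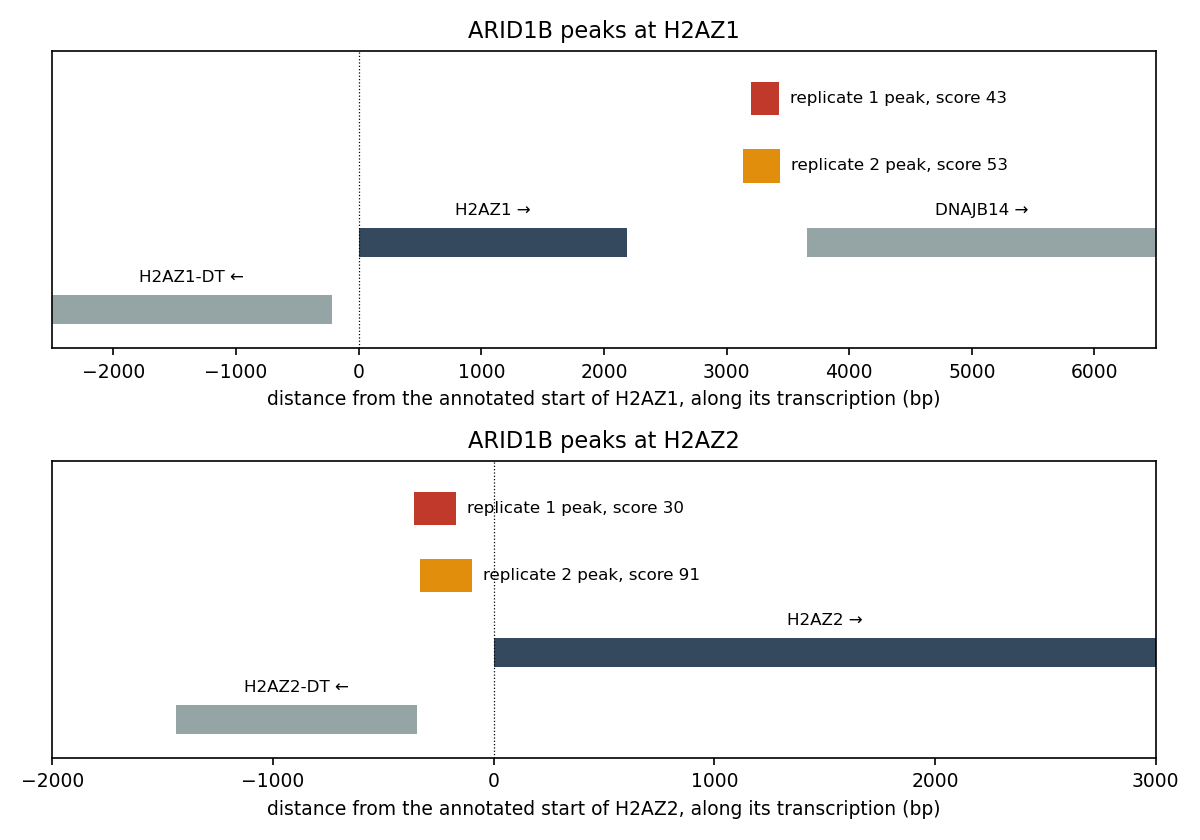
Position of the ARID1B peaks of replicate 1 (red) and replicate 2 (orange) at H2AZ1 (upper panel) and H2AZ2 (lower panel), in bp from the annotated start of each gene along its own direction of transcription; grey and dark bars are gene bodies, clipped at the panel's edges, and arrows give their direction. The H2AZ1 peaks sit between the end of H2AZ1 and the start of DNAJB14, and the H2AZ2 peaks mostly between the starts of H2AZ2 and H2AZ2-DT, with 15 bp of the replicate 1 peak inside H2AZ2-DT.

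The positions can be read against the other protein-coding genes. Of 19866 genes, 209 (1.05%) had an end that a shared region reached within 1000 bp, against which 2 of the 8 variant histone genes stand; since the genes were chosen with these peaks known, nothing is read from that share. In the separate lists, H2AZ2 alone of the members was reached by replicate 1, where 1.14% of protein-coding genes were reached, and H2AZ1 and H2AZ2 by replicate 2, where 1.8% were. Among 15843 protein-coding genes whose strand was given, 0.852% had a shared region at the transcription start, as H2AZ2 did, and 0.29% at the transcription end, as H2AZ1 did. An opposite-strand non-coding RNA gene started within 1000 bp of the start of 3 members, H2AZ1, H2AZ2 and H3-3A, and of these H2AZ2 had a region there. Of all 1705 protein-coding genes with such a partner 1.58% had a shared region at the start, and of the 14138 with none found 0.764%. Partners were sought only among non-coding RNA genes whose strand was given, so members and other genes may have partners that were not counted.

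Set against the other regions at gene ends, that of H2AZ1 scored below the median in both lists, and that of H2AZ2 was far below it in replicate 1 and nearer to it in replicate 2. In all, 164 shared regions reached the ends of protein-coding genes and these had median scores of 69 in replicate 1 and 103.5 in replicate 2. In replicate 1, 11 of them scored lower than the H2AZ2 region and 39 lower than the H2AZ1 region. In replicate 2, 71 scored lower than the H2AZ2 region and 26 lower than the H2AZ1 region. The order of the H2A.Z genes was thus not the same in both lists: H2AZ1 was the higher in replicate 1 and H2AZ2 in replicate 2.

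By scores in both lists, measured as the distance between log2 score pairs over the 2 lists, the gene-end region most like that of H2AZ1 scored 42 and 54 and lay at ERAP1 and LNPEP, which encode aminopeptidases, and at LOC124901030 (chr5:96935045-96935346; distance 0.0434). The genes most like H2AZ2 were TDRKH, which encodes a Tudor-domain protein of the piRNA pathway (scores 32 and 95; distance 0.112), and EIF3G, a translation initiation factor gene, with P2RY11, a purinergic receptor gene, which shared a region (32 and 84; distance 0.148).

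**Figure D2:**
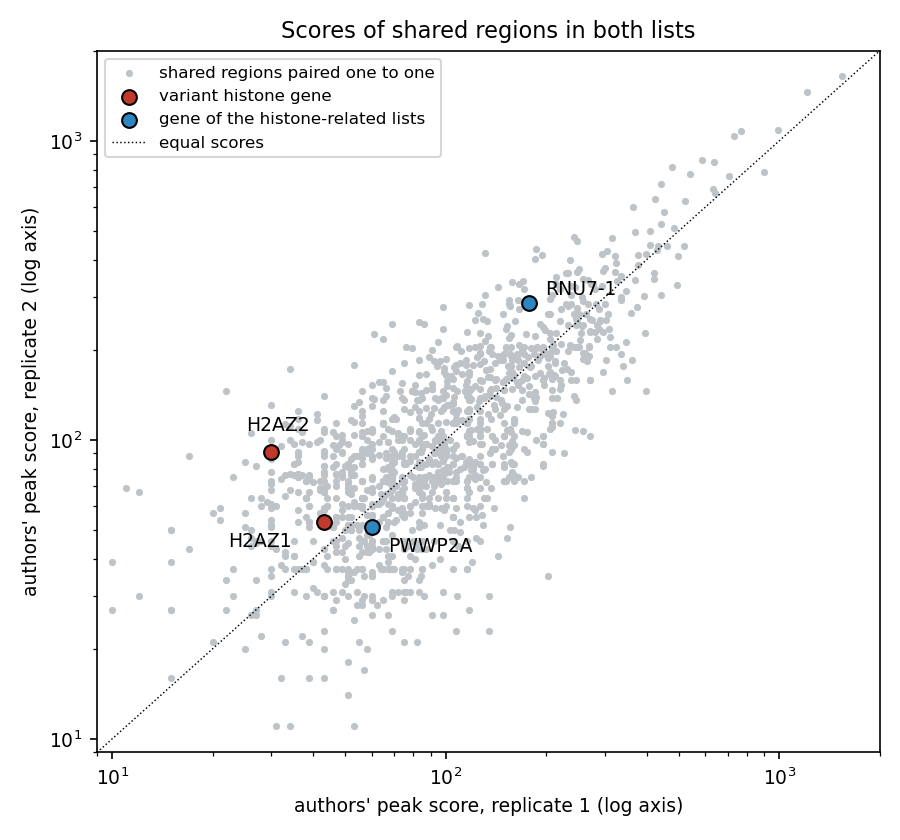
Authors' peak score in replicate 1 (x axis) and replicate 2 (y axis), both on log axes, for the 1305 shared regions formed by a single peak of each list (grey), with the regions of H2AZ1 and H2AZ2 in red and of RNU7-1 and PWWP2A, genes of the histone-related lists, in blue. H2AZ1 (43 and 53) lies near the line of equal scores, and H2AZ2 (30 and 91) lies well above it.

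No peak of either list lay within 50 kb of the other 6 genes. H3-3B (chr17:75776434-75779779) was the nearest to a shared region, 249.7 kb from chr17:76029456-76029827, which scored 41 and 116. H3-3A (chr1:226061831-226072019), the other H3.3 gene, was 1187.7 kb from a region with scores of 100 and 91 at chr1:224873669-224874098. Having no shared region within 50 kb is the usual state, since 7.54% of all protein-coding genes had one. The genes were picked with the H2A.Z peaks known, so the contrast between the H3.3 and H2A.Z genes is no result and was not tested.

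H2AX (chr11:119093874-119095465), whose span lies inside the annotated span of DPAGT1, was 792.7 kb from chr11:119888208-119888435 (scores 72 and 105), and a peak of replicate 2 alone was nearer, at 657.4 kb. H1-10 (chr3:129314771-129316286) was the farthest member, 1915.7 kb from a region inside NEK11, a kinase gene, with low scores of 43 and 16; a peak of replicate 2 alone was 932.1 kb away. MACROH2A1 (chr5:135334381-135399887) was 1020.6 kb from a high-scoring region at chr5:136420485-136420970 (263 and 264), and a peak of replicate 2 alone was 962.9 kb away. MACROH2A2 (chr10:70052846-70112282) was 1124.1 kb from a region inside UNC5B, a netrin receptor gene (60 and 74). In none of these cases is the distant region assigned to the histone gene.

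Over the 8 variant histone genes the median distance to the nearest shared region was 906.7 kb (range 0.1 to 1915.7), against 796.1 kb for 69 replication-dependent histone genes and 796.4 kb for all protein-coding genes. A shared region lay within 500 kb of 3 of 8 variant histone genes (37.5%), against 4 of 69 replication-dependent histone genes (5.8%) and 37.2% of all protein-coding genes. The 4 replication-dependent genes were the neighbours H2AC25 and H2BC26 (29.1 and 28.4 kb) and the neighbours H2AC1 and H2BC1 (306.9 and 307.6 kb). Clustered genes share their neighbourhood, so 5.8% is not a share of separate places and no lack of regions is read from it. Within 50 kb, 7.54% of protein-coding genes had a shared region. Apart from H2AZ1 and H2AZ2, the variant histone genes thus lay at distances common for genes in general: between 23.2% of protein-coding genes (H3-3B) and 75.7% (H1-10) were nearer to a shared region.

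**Figure D3:**
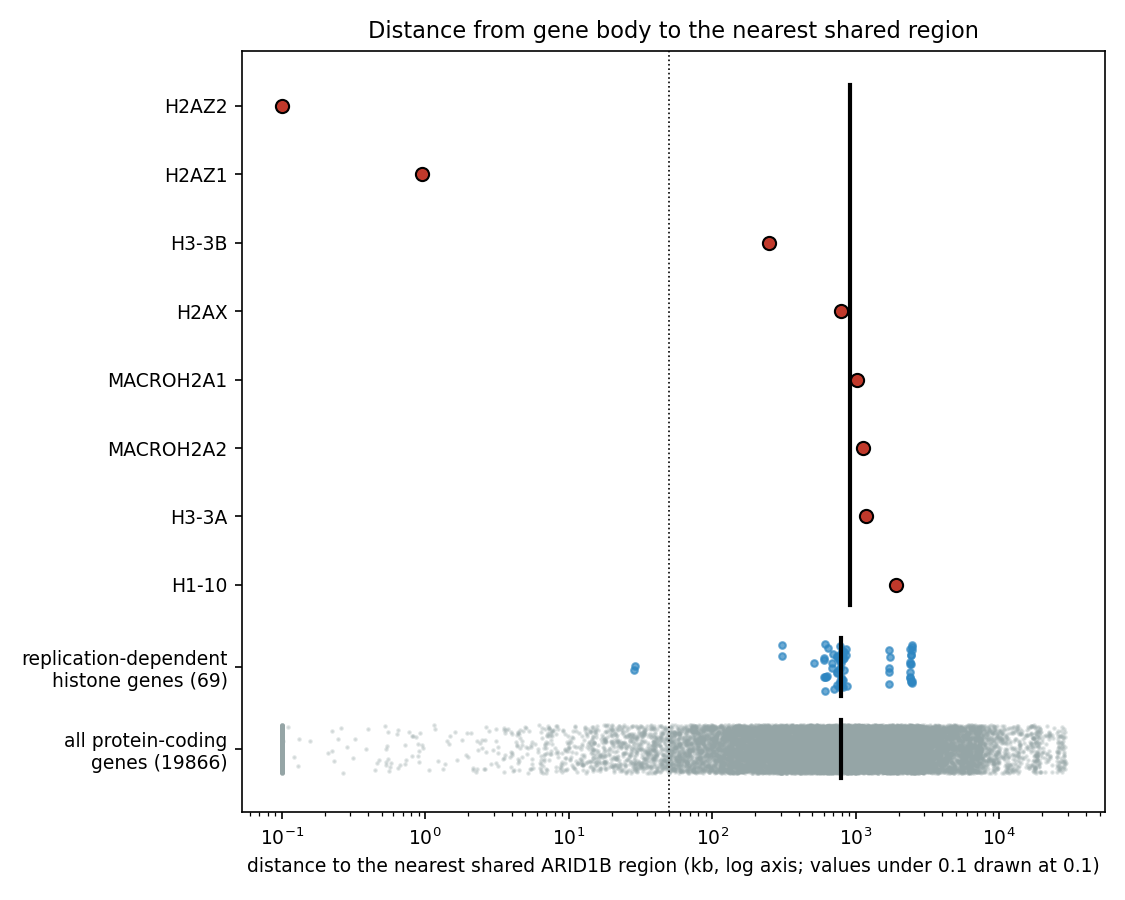
Distance in kb (log axis) from each gene body to the nearest shared ARID1B region for the 8 variant histone genes (red, a row each), the 69 replication-dependent histone genes (blue) and all 19866 protein-coding genes (grey); black lines are medians and the dotted line marks 50 kb. H2AZ2 (0.1 kb) and H2AZ1 (0.944 kb) lie left of the dotted line, and the other 6 variant histone genes lie between 249.7 and 1915.7 kb.

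Replication-dependent histone genes, which as a class supply the bulk of histones in S phase, had no peak of either replicate within 1000 bp of an end (0 of 69). The largest cluster, 34 genes over 559.5 kb at chr6:25726063-26285534, held 0 peaks of replicate 1 and 0 of replicate 2, and its genes were 306.9 to 866.0 kb from a shared region. The 2 other groups on chromosome 6, of 5 and 16 genes, and the 11 genes at chr1:149782689-149887965 also held 0 peaks in either list, and none lay within 50 kb of them. Within 50 kb, 2 of 69 genes (2.9%) had a shared region: H2AC25 and H2BC26 on chromosome 1 were 29.1 and 28.4 kb from the same region at chr1:228487001-228487321, with scores of 59 and 68. Clustered genes share their neighbourhood, so the 69 genes form 6 separate places and not 69.

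The replication-dependent genes are also shorter, with a median length of 0.494 kb, against 6.77 kb for the variant histone genes (range 1.52 to 65.5) and 24.5 kb for all protein-coding genes. Short genes leave less sequence within reach of both ends, and the part of length in these counts was not tested. At the share of all protein-coding genes, 0.726 of 69 genes would be due, so a count of 0 in a group of this size does not stand apart from that share. The difference between 2 of 8 and 0 of 69 was the ground on which the genes were chosen and was not tested.

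Genes that deposit, bind or process these histones, with other variant histone genes, were counted in 6 lists of 112 annotated genes. A shared region lay within 1000 bp of an end of 2 of them (1.79%), a share close to the 1.05% of all protein-coding genes. Of these 2, RNU7-1 is an RNA gene outside the protein-coding set, so the shares are not of like classes. Of 32 genes of H2A.Z exchange and reading, 1 had a region: PWWP2A, which encodes a protein that binds H2A.Z nucleosomes (chr5:160044316-160119450, minus strand). Its peaks scored 60 in replicate 1 and 51 in replicate 2 and were centred 212 and 184 bp upstream of its start, so that PWWP2A, like H2AZ2, was reached on the upstream side. ING3, which encodes a subunit of the NuA4 acetyltransferase complex, had a shared region 5648 bp from an end (85 and 37).

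Of 16 genes of histone message processing 1 was reached, RNU7-1, the U7 RNA gene that serves the replication-dependent histones, and its scores of 177 and 286 (percentiles 86.9 and 95.2) were above those of both H2A.Z genes. That region also reached C12orf57. Of 17 H3.3 chaperone genes and their relatives 0 had a shared region at an end; ASF1B, which encodes a histone H3-H4 chaperone, had one 1418 bp from its transcription end (186 and 203), within 1000 bp of an end of PRKACA. CHAF1A, which encodes a subunit of the chaperone that deposits replication-coupled H3, was 21108 bp from a region with scores of 69 and 117. That region lay within 1000 bp of an end of HDGFL2. Of 17 genes of H2AX signalling and DNA damage 0 had a shared region within 50 kb. Of the 17 H3.3 chaperone genes and relatives 2 had one, and of all protein-coding genes 7.54%. Lists of 17 genes are too small for a departure from that share to be read. MDC1, which encodes a protein that binds phosphorylated H2AX, had separate peaks at 8652 bp in replicate 1 (score 34) and 4313 bp in replicate 2 (score 38). The replicate 1 peak lay within 1000 bp of an end of TUBB. EYA1, a phosphatase gene, held a peak of each replicate at different places inside it (69 and 60). Among 11 partners of macroH2A and linker histones, HMGN1, a nucleosome-binding protein gene, had a peak of replicate 2 alone over its start (score 48, percentile 25.4). That peak also lay within 1000 bp of an end of LOC105372804. Of 19 other variant histone genes, among them CENPA, 0 had a shared region at an end, and H3-5 was 41513 bp from one (70 and 119). The region nearest H3-5 lay within 1000 bp of an end of LOC105369724.

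The promoters of the variant histone genes were searched for short elements on both strands in the 300-base windows of the RefSeq table, 12 of them for the 8 genes. H3-3A and MACROH2A1 had several windows each, and a gene was counted when any of its windows matched. The counts of genes below are therefore not like for like with the shares of windows. CCAAT was found at least once at 6 of the 8 genes and in 34.6% of the 35116 promoter windows of the table. At least 3 matches of it were found at H2AZ1, H2AZ2, H2AX and H3-3B, 4 of the 8 genes, and in 3.26% of the windows. This stricter count was made for CCAAT alone, and the other elements were counted at 1 match or more. Among the 4 genes with at least 3 matches, H2AZ2 had a peak at its start and H2AZ1, H2AX and H3-3B had none there. The H2AZ2 window held 4 matches, of which 2 lay under the peaks of both replicates. The printed interval under both peaks held a further match outside that window, 3 in all, and 1 GC box (GGGCGG). The GC box was found at 5 of the 8 genes and in 45.0% of all windows. TATAAA was found at H1-10, H2AZ1, H2AX and H3-3B and in 11.5% of all windows, and not at H2AZ2. The AP-1 letters TGANTCA were found at 0 of the 8 genes and in 7.71% of all windows. The DNAJB14 window held 0 CCAAT and 4 GC boxes and was 78.0% G and C, against 66.3% in the H2AZ2 window and a median of 58.7% over all windows. Both windows lay mostly outside the peaks, and the DNAJB14 window held only 23 and 28 bp of them. The H2AZ2 interval under both peaks was 54.9% G and C, below that median. Matches of letters describe these sequences and do not show what binds there.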

How the data were processed

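The submitters' processing notes name MACS2 2.1.2, Bowtie2 2.3.4.1, bcl2fastq 2.20.0.422 and the build hg38; for the settings, the antibody, the peak threshold and the use of the input, nothing is given in the sources used here. Each ChIP replicate had its own list, deposited by the authors, in which every peak carries a whole number, a score of unstated scale. Starts were converted to count from 1. Genes came from a RefSeq table of GRCh38.p14 (58961 genes kept; 831 on other sequences left out), and strands and sequences from a RefSeq promoter table, which gave a strand for 15843 protein-coding genes. Replication-dependent histone genes were found by symbol, and whether each is used in this cell line was not examined. Gene lists came from general knowledge. The members and lists were chosen with earlier results of these data known, and the motifs and the comparison by divergent partner after the peaks had been seen. Genes named were the members, genes sharing their peaks, list genes with a region at an end, and the 3 genes nearest by score. ING3, ASF1B, CHAF1A, MDC1, EYA1, H3-5, HMGN1, H2AC1, H2BC1, H2AC25 and H2BC26 were named after their values were seen, as were genes at or around other regions described. No test was made. The code that assigns peaks to genes was run on simulated peaks placed well inside the 1000 bp window. Their recovery was therefore given by design, and calls near that limit, such as that of H2AZ1, were not probed. Alternatives were the overlap rule, the higher-scoring part of each list (its median score or more), each replicate alone, and other windows. Python 3.11.15, pandas 2.3.3.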

Additional observations from a re-analysis of the deposited data

How the results depend on the processing

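With 50% reciprocal overlap or centres within 200 bp, the same 2 variant histone genes and the same counts of replication-dependent genes were found. When each list was restricted to scores of at least its own median, 0 variant histone genes had a shared region within 1000 bp or within 50 kb, 0 replication-dependent genes had one within 50 kb, and the shares of protein-coding genes were 0.463% and 3.83%. Replicate 1 alone reached 1 variant histone gene within 1000 bp (H2AZ2) and replicate 2 alone 2; the shares of protein-coding genes were 1.14% and 1.8%. A window of 500 bp left 1 (H2AZ2). The protein-coding share was 1.71% within 5000 bp, 4.16% within 10 kb and 11.8% within 100 kb of the body, and within 10 kb 0 replication-dependent genes were reached. The H2AZ1 call thus rests on the window and on replicate 2. Both H2AZ1 peaks and the H2AZ2 peak of replicate 1 scored below the median of their list, and the H2AZ2 peak of replicate 2 above it. Depth is unknown, so a missing peak does not show that ARID1B was absent. No paired analysis was possible because the ChIP replicates form a single group and no test was made.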
